A study of Mus musculus with 67 samples.

Results

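Metallothionein transcripts were examined in the retina and the retinal pigment epithelium (RPE) of photosensitive mice. The 3 genes, Mt1, Mt2 and Mt3, were taken as the rows of both expression tables whose Ensembl identifiers map to these symbols. They are 3 of 16930 genes in the retina table and 3 of 16714 in the RPE table, and all 3 passed the filter on low values in both. Mt4, the remaining gene of the cluster, has no row in either table. All animals were C57BL/6J mice that lack both Abca4 and Rdh8, genes that act in clearing all-trans-retinal from photoreceptors. The controls carry both deletions too, and no library of the unmutated strain entered these comparisons.

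The groups were NB, 6h, 1d and 3d, with 6, 3, 4 and 4 retina libraries and 5, 3, 4 and 4 RPE libraries, 33 in all. The labels do not say what NB stands for; it is used as the reference here. The event from which the times count, the age and the sex of the mice are not given in the sources used here. Each library came from the 2 pooled eyes of 1 mouse, so a group is a set of animals. The whole series holds 67 samples, of which 34 are chromatin accessibility libraries that were not analysed here.

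Metallothioneins are small, cysteine-rich proteins that bind zinc and copper and scavenge reactive oxygen species. Mt1 and Mt2 are made in most tissues, and their genes are switched on by zinc through the metal-sensing factor Mtf1, and also by glucocorticoids, by cytokines that act through STAT3 and by oxidative stress. Mt3 is found mainly in the nervous system, binds zinc in neurons and glia, and responds weakly to metals. In the eye, metallothioneins are known from Muller glia and from the RPE, which stores zinc.

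The genes lie in 1 cluster on mouse chromosome 8, in the order Mt4, Mt3, Mt2, Mt1 along the plus strand. In the RefSeq table for GRCm38.p6 the cluster spans 43124 bases. Mt3 occupies chr8:94152607-94154148, Mt2 chr8:94172618-94173567 and Mt1 chr8:94178883-94180327. The gap between the end of Mt2 and the start of Mt1 is 5315 bases, and that between Mt3 and Mt2 is 18469 bases.

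The 250 bases before the RefSeq transcript start of each gene are shown because Mt1 and Mt2 changed together in the retina while Mt3 changed little. The windows are on the plus strand of chromosome 8, from the RefSeq promoter table for GRCm38.p6, at chr8:94178839-94179088 for Mt1, chr8:94172368-94172617 for Mt2 and chr8:94152357-94152606 for Mt3. The Mt1 gene span begins inside its own window. Capitals mark matches, on either strand, to the core of the metal response element bound by Mtf1, searched as TGCACNC and TGCGCNC.
Mt1: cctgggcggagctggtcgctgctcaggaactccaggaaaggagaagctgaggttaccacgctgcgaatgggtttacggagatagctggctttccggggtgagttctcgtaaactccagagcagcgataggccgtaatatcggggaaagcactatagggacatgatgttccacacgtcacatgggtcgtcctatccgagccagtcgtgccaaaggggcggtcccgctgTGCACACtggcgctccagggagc
Mt2: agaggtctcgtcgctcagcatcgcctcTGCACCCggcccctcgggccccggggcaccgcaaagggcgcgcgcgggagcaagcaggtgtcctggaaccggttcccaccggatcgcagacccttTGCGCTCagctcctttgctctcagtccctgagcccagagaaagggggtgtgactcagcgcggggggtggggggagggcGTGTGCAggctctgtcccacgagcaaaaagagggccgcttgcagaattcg
Mt3: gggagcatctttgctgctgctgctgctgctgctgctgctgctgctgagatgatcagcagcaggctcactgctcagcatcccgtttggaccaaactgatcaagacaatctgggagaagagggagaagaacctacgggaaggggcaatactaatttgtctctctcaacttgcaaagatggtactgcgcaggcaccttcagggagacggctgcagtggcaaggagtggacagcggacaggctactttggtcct
The search covered these windows plus the 50 bases after each start, 300 bases in all. Mt2 held 4 matches, beginning at positions -223, -128, -50 and 5 from the start. Mt1 held 3 matches, beginning at positions -23, 3 and 21 from its listed start. The Mt1 gene span begins before that start, so another Mt1 start would shift these positions and the bases searched. Bases more than 50 after a listed start were not searched, so the genes cannot be ranked by these counts. Mt3 held 1 match, which lies after the start, at positions 28 to 34, so its printed window has no capitals. A match to either form was present in 25.7% of the 32851 promoter windows of the same length. At least 3 matches were present in 1.97% of them and at least 4 in 0.517%. Mt2 also held the letters TGACTCAGC at positions -79 to -71, which match both the antioxidant response element core (TGACNNNGC, in 12.4% of windows) and, in their first part, the AP-1 site (TGANTCA, in 7.81%). Mt1 held 1 match to the glucocorticoid response element core (ACANNNTGT, in 6.85%), ACATGATGT at positions -92 to -84. The STAT site (TTCNNNGAA, in 8.3% of windows) and the E-box (CACGTG, in 7.15%) had no match in these windows of the 3 genes. Matches are runs of letters, and binding was not measured.

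Levels are given as CPM, the unit of the authors' tables, which are read counts scaled to an effective library size and not to the plain library total. Summed over all genes, the values ran from 930032 in a 1d retina library to 1120273 in a 1d RPE library. The reads behind a value ranged from 107 for Mt3 in an NB retina library to 10645 for Mt1 in an NB RPE library. Recovered library depth fell into 2 sets: 22.6 to 32.4 M reads (retina) and 23.1 to 26.8 M reads (RPE) in the 6h libraries and in the NB libraries whose columns follow one naming style (A), against 9.45 to 15.2 and 11.5 to 14.4 M reads in the others (NB B, 1d and 3d). Contrasts of 1d or 3d with 6h cross these sets, and depth and time cannot be told apart there. Rod marker genes summed to 61754 to 69289 CPM in NB retina. In the libraries labelled RPE, RPE markers such as Rpe65 and Best1 summed to 11171 to 18128 CPM in NB. Although the protocol removes cornea and lens, keratins and other surface epithelium markers summed to 13407 to 35196 CPM in NB RPE libraries, against 2.07 to 6.53 CPM in NB retina. Lens markers summed to 175 to 6862 CPM in NB retina and 1941 to 7709 CPM in NB RPE libraries. Levels in the RPE libraries are therefore those of a mixed preparation, and in bulk tissue fewer cells of a type and less RNA per cell cannot be told apart. Mt1 and Mt2 have similar sequences, and how the authors' counting treated reads shared by both is not given in the sources used here.

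Mt2 and Mt1 rose steeply in the retina. Both were already at their highest group mean at 6h and were still above NB at 3d. Mt3 rose far less. The differences were tested with limma on log2(CPM + 0.5), a scale that slightly understates the change of low genes, with Benjamini-Hochberg adjustment over the 16926 genes tested and a threshold of 0.05.

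In the retina, Mt2 stood at 8.89 CPM in the lowest NB library, 10.9 at the median and 13.7 in the highest. At 6h the 3 libraries held 97.5, 105.6 and 126 CPM. At 1d they held 110, 77.9, 68.1 and 103 CPM, and at 3d 60.7, 53.4, 54.5 and 56.3 CPM. No library of the 3 later groups overlapped NB. The mean of the 6 NB libraries was 10.99 ± 1.87 CPM (SD). Means at 6h, 1d and 3d were 109.8 ± 14.8, 89.6 ± 19.8 and 56.2 ± 3.18 CPM (SD of 3, 4 and 4 libraries). Against NB, Mt2 rose by 3.27 ± 0.14 on the log2 scale at 6h (SE, limma adjusted p = 2.4e-12), by 2.96 ± 0.13 at 1d (adjusted p = 7.03e-13) and by 2.32 ± 0.13 at 3d (adjusted p = 1.68e-10). Its log2 change at 6h was higher than that of 99.9% of the genes tested.

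Mt1 in the NB retina ranged from 20.6 CPM through a median of 25.0 to 30.2 CPM. The 6h libraries held 135, 148 and 176 CPM, the 1d libraries 149, 103, 93.6 and 144 CPM, and the 3d libraries 69.6, 64.6, 67.8 and 71.4 CPM. Again every later library was above every NB library. The 1d libraries fell into a higher pair (replicates 1 and 4) and a lower pair (replicates 2 and 3), in Mt1, Mt2 and Mt3 alike. Mt1 rose against NB by 2.58 ± 0.13 at 6h (log2, SE, limma adjusted p = 4.54e-11), by 2.24 ± 0.12 at 1d (adjusted p = 2.59e-11) and by 1.43 ± 0.12 at 3d (adjusted p = 5.71e-08).

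Mt3 in the NB retina ranged from 9.44 CPM through a median of 10.97 to 12.2 CPM. The 6h libraries held 14.3, 13.8 and 15.6 CPM and the 3d libraries 14.9, 13.5, 14.9 and 14.6 CPM, all above NB. The 1d libraries, at 14.2, 11.2, 9.77 and 12.9 CPM, overlapped NB. Mt3 rose by 0.40 ± 0.10 on the log2 scale at 6h (SE, limma adjusted p = 0.00425) and by 0.40 ± 0.09 at 3d (adjusted p = 0.00193), a 1.34-fold and a 1.33-fold higher mean CPM. At 1d the difference was 0.13 ± 0.09 (95% interval -0.08 to 0.33, limma adjusted p = 0.275) and did not pass. When CPM were recomputed on plain library totals, the 1d difference was 0.29 and passed (adjusted p = 0.0156).

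All 3 genes passed at 6h, where 35.4% of all genes tested were called and 16.9% were called higher; 2 of 3 passed at 1d (51.5% called, 24% higher) and 3 of 3 at 3d (43.2% called, 19.3% higher). The split of calls depends on scaling: on library totals 41.7% of genes were called higher and 14.5% lower at 1d, and 35.5% and 10.6% at 3d. That scaling moved the median log2 change of all genes in retina by 0.03 at 6h, 0.16 at 1d and 0.14 at 3d, so the Mt3 value of 0.29 at 1d stands against a median of 0.15. With such backgrounds a call alone says little about these genes, and it is the size of the change in Mt1 and Mt2 that sets their values apart from most. Groups that lie wholly above NB were found for 16.1% of genes at 6h, 16.3% at 1d and 13.5% at 3d. Against only the NB libraries of the same depth set, the log2 changes at 6h were 2.80 for Mt1, 3.52 for Mt2 and 0.43 for Mt3. The same restriction gave 2.13, 2.84 and 0.11 at 1d, and 1.32, 2.19 and 0.38 at 3d, with the same calls. The authors' deposited table lists log2 fold changes of 2.62, 2.30 and 1.45 for Mt1 and 3.36, 3.06 and 2.39 for Mt2 at 6h, 1d and 3d. For Mt3 the authors' deposited table lists 0.42, 0.14 and 0.41, with unadjusted p-values of 0.51, 0.988 and 0.557 from a test against a minimum fold, per the file headers.

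**Figure D1:**
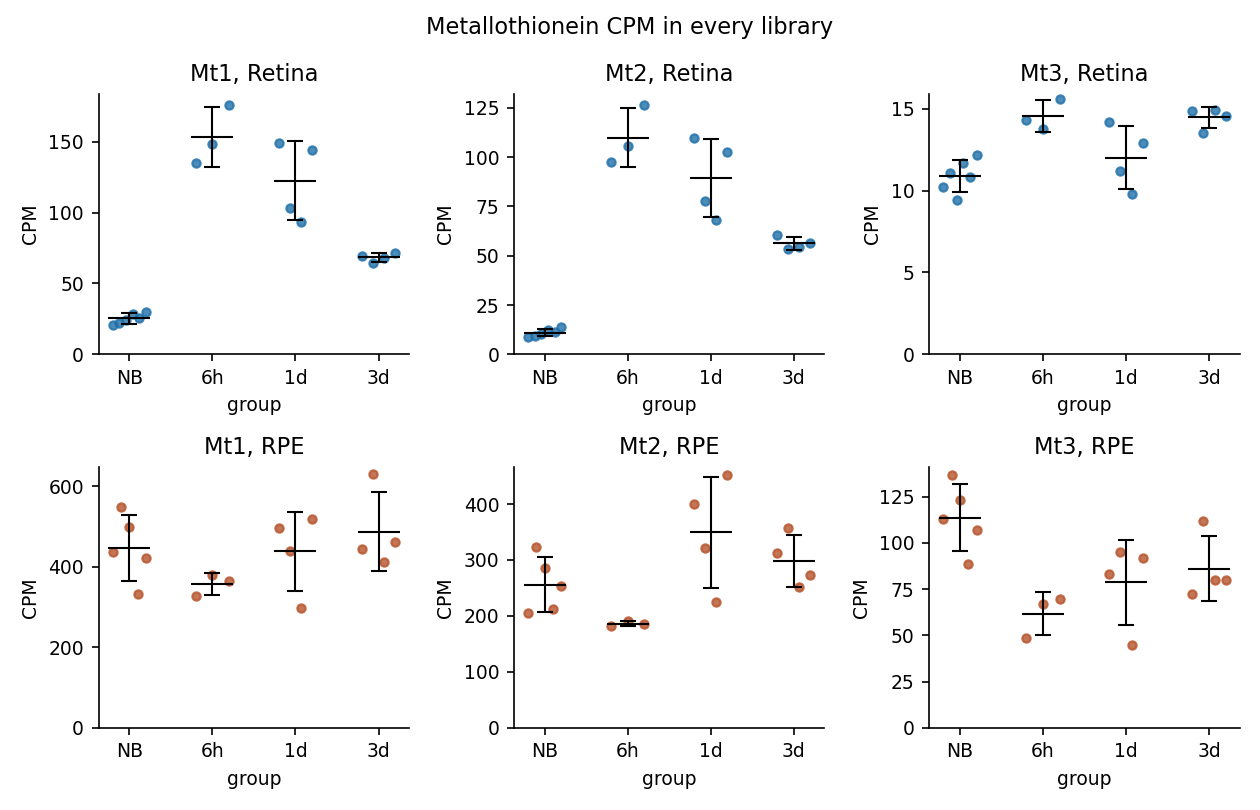
CPM (vertical axes, linear from 0) of Mt1, Mt2 and Mt3 in each library, by group (horizontal axes), for retina (upper row) and RPE (lower row). Points are libraries, long dashes are group means and bars are 1 SD; in retina every 6h, 1d and 3d point of Mt1 and Mt2 lies above every NB point, while in RPE only the 6h points of Mt2 and Mt3 lie apart from NB, below it.

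Between the later times, the retinal levels of Mt1 and Mt2 declined by 3d and Mt3 did not follow. From 1d to 3d, within 1 depth set, Mt1 fell by 0.81 ± 0.13 on the log2 scale (SE, limma adjusted p = 0.00019) and Mt2 fell by 0.64 ± 0.14 (adjusted p = 0.0022), with no overlap between the groups. In this comparison 21.4% of genes were called and 11.6% were called lower, and groups lay wholly below in 11.7%. Mt3 was 0.27 ± 0.10 higher at 3d than at 1d and did not pass (limma adjusted p = 0.0647). It passed without replicate 1 of 1d (0.35, adjusted p = 0.019). From 6h to 3d, across depth sets, Mt1 fell by 1.15 ± 0.14 (limma adjusted p = 5.03e-06) and Mt2 fell by 0.95 ± 0.15 (adjusted p = 6.24e-05), where 35% of genes were called, 18.5% were called lower (12.2% on library totals) and 22.9% had all 3d libraries below all 6h libraries. Mt3 at 3d differed from 6h by -0.01 ± 0.11 (adjusted p = 0.965). From 6h to 1d none of the 3 genes passed, with 35% of genes called. Mt1 changed by -0.34 ± 0.14 (limma adjusted p = 0.0736), Mt2 by -0.31 ± 0.15 (adjusted p = 0.118) and Mt3 by -0.28 ± 0.11 (adjusted p = 0.0556). These last values rest on the split of the 1d libraries. Without replicate 1 of 1d all 3 genes passed as lower at 1d than at 6h (-0.45, -0.42 and -0.36), and without replicate 4 of 1d Mt1 (-0.43) and Mt3 (-0.32) did. With DESeq2, Mt1 (-0.33, adjusted p = 0.0489) and Mt3 (-0.28, adjusted p = 0.0362) passed too.

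In the RPE libraries no metallothionein passed against NB at any time. Changes were harder to call there than in retina. In simulated reads a 2-fold change was recovered for 94% of changed genes in retina at 6h and for 64.2% in RPE at 6h. In RPE 1.46% of the 16712 genes tested were called at 6h, 5.61% at 1d and 0.18% at 3d, shares that moved with single libraries. At 6h the count of called genes was 244 with all libraries, 9 without replicate 1 of 6h, 17 without replicate 3, 442 without replicate 2 and 1012 without NB A1. It was 41, 40 and 67 without NB B1, B2 or B4. At 1d the count was 937, with 617 without NB B2 and 1429 without NB B3, and at 3d it was 30, with 15, 18 and 16 without NB B1, NB B3 or replicate 1 of 3d. The group means of all 3 genes were above those of retina at every time, and the clearest departure from NB was lower Mt3 at 6h.

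Mt3 in the RPE libraries held 113, 136, 123, 88.4 and 107 CPM in NB, in the order A1, B1 to B4. At 6h it held 48.7, 67.1 and 69.6 CPM, at 1d 83.1, 95.1, 44.8 and 91.7 CPM, and at 3d 72.3, 112, 80.0 and 80.2 CPM. All 3 libraries of 6h were below the lowest NB library, as for 5.98% of genes, and the 1d and 3d groups overlapped NB. The mean at 6h was 61.8 ± 11.4 CPM (SD, n = 3) against 113.7 ± 18.0 in NB (n = 5). The log2 difference was -0.88 ± 0.22 (SE, 95% interval -1.36 to -0.39), and its limma adjusted p of 0.0616 missed the threshold. It passed with DESeq2 (adjusted p = 0.00613), in a fit of these 2 groups alone (0.0334) and without NB A1 (0.0469), and missed with edgeR (0.0519). Against NB A1 alone, the only NB library of the same depth set, it was -0.88 (limma adjusted p = 0.34). At 1d the difference was -0.57 ± 0.21 (adjusted p = 0.119) and at 3d -0.40 ± 0.21 (adjusted p = 0.5258).

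Mt2 in the RPE libraries held 205, 323, 285, 213 and 254 CPM in NB, in the same order. The 6h libraries, at 183, 191 and 186 CPM, were close together and all below NB. The 1d libraries held 400.1, 322, 224 and 453 CPM and the 3d libraries 313, 357, 252 and 273 CPM, both overlapping NB. Against NB the log2 differences were -0.44 ± 0.20 at 6h (SE, limma adjusted p = 0.265), 0.42 ± 0.18 at 1d (adjusted p = 0.199) and 0.23 ± 0.18 at 3d (adjusted p = 0.673). Without replicate 3 of 1d, the lowest of its group, the 1d difference was 0.62 and passed (adjusted p = 0.0366). The mean rose from 186 ± 4.2 CPM at 6h (SD, n = 3) to 349.7 ± 99.4 at 1d (n = 4), by 0.86 ± 0.21 on the log2 scale (SE, limma adjusted p = 0.0393), with all 1d libraries above all 6h libraries. In that comparison 1 of the 3 metallothioneins was called, and of all genes 3.39% were called, 1.77% were called higher (0.664% on library totals) and 12.1% had all 1d libraries above all 6h libraries. This call was lost without any single library other than replicate 3 of 1d (adjusted p of 0.0611 to 0.159). It was also lost on library totals (0.0671), in the 2 groups alone (0.0659) and with the replicate number as a block (0.0791). Mt2 at 3d was 0.67 ± 0.21 above 6h and missed (limma adjusted p = 0.111), and it passed with DESeq2 (0.69, adjusted p = 0.0319). For all 3 genes every 3d RPE library was above every 6h library, as for 12.6% of genes, yet none passed, with 0.874% of genes called. None passed between 1d and 3d either, where 6.58% of genes were called.

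Mt1 in the RPE libraries varied as widely within groups as between them. NB held 436, 547, 499, 331 and 421 CPM, 6h 327, 379 and 364 CPM, 1d 495, 439.8, 297 and 519 CPM, and 3d 445, 631, 411 and 461 CPM. Only replicate 1 of 6h was below the whole NB range at that time. The log2 differences from NB were -0.31 ± 0.20 at 6h (limma adjusted p = 0.435), -0.04 ± 0.18 at 1d (0.922) and 0.12 ± 0.18 at 3d (0.8287). Their 95% intervals were -0.73 to 0.12, -0.43 to 0.35 and -0.27 to 0.51, all below the retinal rises of Mt1 at the same times.

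The change against NB differed between the tissues for all 3 genes at all 3 times. This was tested as an interaction in 1 fit over the 15105 genes that passed the filter in both tables, each tissue against its own NB, because the tables were normalized separately. At 6h the RPE change minus the retina change was -3.71 ± 0.25 for Mt2 (log2, SE, limma adjusted p = 2.88e-11), -2.89 ± 0.24 for Mt1 (adjusted p = 1.23e-09) and -1.28 ± 0.25 for Mt3 (adjusted p = 0.000678), where 17.6% of genes were called and 8.56% lower. At 1d it was -2.54 ± 0.23, -2.28 ± 0.22 and -0.70 ± 0.23 for Mt2, Mt1 and Mt3, with 21.7% of genes called and 12.1% lower (21.4% lower and 4.41% higher on library totals). At 3d it was -2.09 ± 0.23, -1.31 ± 0.22 and -0.80 ± 0.23, with 12.2% called and 5.93% lower (8.55% lower and 2.42% higher on library totals). The limma adjusted p for Mt3 was 0.0262 at 1d and 0.02 at 3d. The 1d value of Mt3 is the least secure of these. It missed without replicate 1 or 4 of retina 1d (-0.62 and -0.66), without RPE NB B1 (-0.63), without replicate 3 of RPE 1d (-0.45) and against NB libraries of the same depth set (-0.68, adjusted p = 0.0556). From 1d to 3d the tissues differed for Mt1 (0.97 ± 0.24, limma adjusted p = 0.0133), which fell in retina and not in RPE libraries, with 5.78% of genes called and 4.43% higher. For Mt2 (0.45 ± 0.25, adjusted p = 0.28) and Mt3 (-0.10 ± 0.24, adjusted p = 0.84) no difference between the tissues passed over that step.

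**Figure D2:**
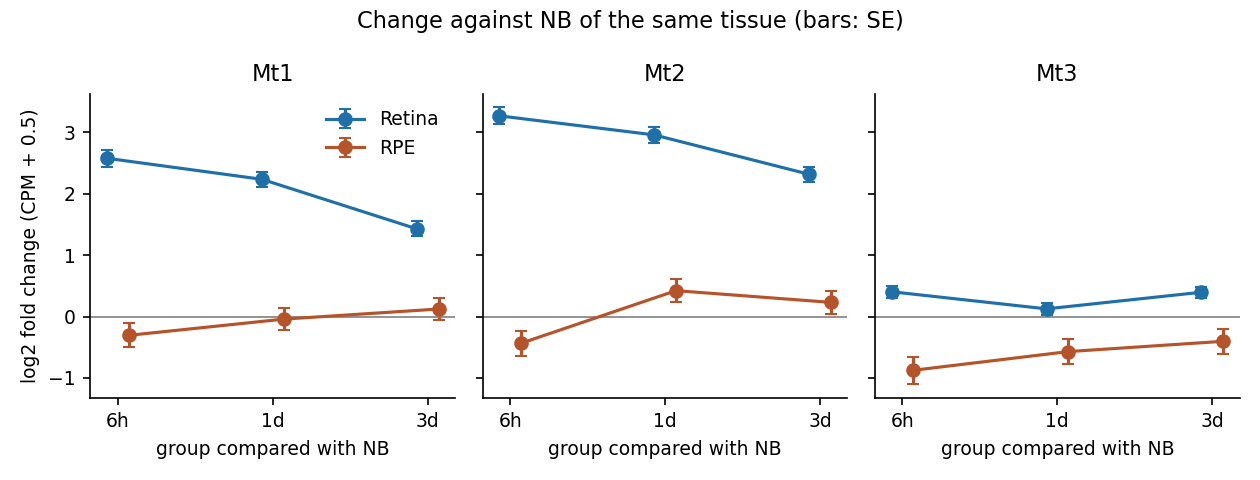
Log2 fold change of CPM + 0.5 against NB of the same tissue (vertical axis) at 6h, 1d and 3d (horizontal axis) for Mt1, Mt2 and Mt3, retina in blue and RPE in orange, with bars of 1 SE. Retinal Mt2 starts at 3.27 and Mt1 at 2.58 and both decline, while the RPE values lie between -0.88 and 0.42.

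Set side by side, the mean levels of the tissues were far apart in NB and closest at 6h. The RPE mean was 23.3 times the retina mean for Mt2 in NB, 17.7 times for Mt1 and 10.4 times for Mt3. At 6h it was 1.70, 2.33 and 4.24 times. By 3d it had widened again for Mt2 (5.31) and Mt1 (7.12). These ratios join tables that were normalized separately and carry no test. Retinal Mt2 thus went from 4.29% of the RPE level in NB to 58.9% at 6h. The RPE mean of Mt2 was itself lower at 6h, at 186 CPM against 256 in NB. The summed RPE markers in the retina libraries were 2.38% of their level in the RPE libraries in NB, 6.63% at 6h, 3.75% at 1d and 2.69% at 3d. Their mean sum in the RPE libraries was 14811 CPM in NB and 9086 at 6h, so the 6h share also reflects a lower RPE value. In the retina 5 of 9 tested RPE markers were called higher at 6h, against 16.9% of all genes tested. The marker sums were 445 to 697 CPM at 6h and 270 to 411 CPM in NB, a mean of 603 against 353 CPM. The part of these markers' cells in the retinal Mt values was not tested.

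**Figure D3:**
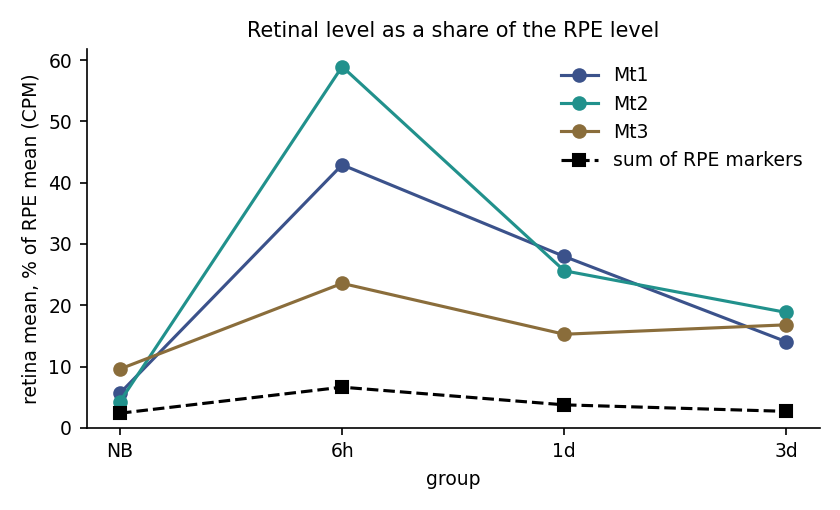
Mean retinal CPM as a percentage of mean RPE CPM (vertical axis, from 0) in each group (horizontal axis) for the 3 genes, with the summed RPE markers as a dashed line. Mt2 reaches 58.9% and Mt1 42.9% at 6h, while the RPE markers reach 6.63%. The RPE means of all 3 genes and of the markers were lower at 6h than in NB.

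Other cell markers were read in the retina over the same times, and some lists had calls near the shares over all genes. Of all retina genes tested, 16.9% were called higher and 18.5% lower at 6h, 24% and 27.5% at 1d, and 19.3% and 23.9% at 3d. Of 10 rod markers 8 were called lower at 6h, 10 at 1d and 9 at 3d, and their mean sum was 65995 CPM in NB, 41278 at 6h, 25562 at 1d and 35697 at 3d. Muller glia markers, from glia in which metallothioneins are known, had 4 of 10 called higher and 2 lower at 6h, 5 higher and 2 lower at 1d, and 9 higher at 3d. Their summed CPM ranged from 5238 to 6203 in NB, 5086 to 6271 at 6h, 4810 to 5793 at 1d and 7637 to 8394 at 3d. At 6h, when Mt2 and Mt1 were highest, the glial sum overlapped its NB range. Astrocyte markers, a list that shares Gfap with the glial one, had 2 of 5 called higher at 6h, 2 higher and 1 lower at 1d and 3 higher at 3d, with mean sums of 84.5 CPM in NB, 262 at 6h, 662 at 1d and 361 at 3d. Microglia and macrophage markers had 1 of 9 higher and 2 lower at 6h, 5 higher and 3 lower at 1d, and 7 higher at 3d. Endothelial markers had 1 of 8 higher and 1 lower at 6h, 6 higher at 1d and 7 higher at 3d, with mean sums of 301 CPM in NB, 294 at 6h, 529 at 1d and 574 at 3d. Inner retinal neuron markers had 2 of 10 higher and 1 lower at 6h, 5 and 1 at 1d, and 7 and 0 at 3d. Red blood cell markers had 0, 3 and 4 of 4 higher, and fibroblast and pericyte markers 0, 1 and 3 of 7. In the RPE libraries at 6h the RPE markers summed to 6996 to 10317 CPM, below every NB library. Of these markers 1 of 10 was called lower, against 0.652% of all genes. In the same 6h libraries rod markers summed to 5220 to 14421 CPM, against 3840 to 6236 in NB, with 0 of 10 called. Microglia and macrophage markers summed to 150 to 206 CPM, below every NB library (227 to 312), with 0 of 9 called. Muller glia markers summed to 6646 to 8776 CPM, against 8156 to 11903 in NB, with 0 of 10 called. The mean sum of this list was higher in NB RPE libraries (10755 CPM) than in NB retina (5807 CPM). In RPE libraries it is therefore not read as glial content. The RPE marker sum at 1d was 6154 to 8826 CPM, with 4 of 10 called lower, against 3.84% of all genes. Surface epithelium markers summed to 18576 to 29287 CPM at 6h, 23041 to 47350 at 1d and 10370 to 27884 at 3d there, with 0 of 6 called. The part of these shifts in the metallothionein values was not tested.

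The 2 inducible genes did not rise in proportion. The ratio of Mt2 to Mt1 CPM within a library is free of library scaling; since CPM are not per length, its change and not its size is of interest. In the retina it was 0.434 ± 0.013 in NB (SD, n = 6), spanning 0.415 to 0.454. The 6h libraries had 0.723, 0.712 and 0.717, the 1d libraries 0.737, 0.753, 0.728 and 0.714, and the 3d libraries 0.872, 0.827, 0.805 and 0.788. No later library overlapped NB, so Mt2 gained on Mt1, and the 3d ratios were above all 6h and 1d ratios. Exact two-sided permutation tests over libraries gave p = 0.0238 at 6h and p = 0.00952 at 1d and at 3d, the smallest these group sizes allow. Adjusted over the 6 comparisons of both tissues these became 0.0357, 0.0286 and 0.0286. Against the 2 NB libraries of the same depth set the 6h design could not reach the threshold (exact p = 0.2).

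The RPE libraries had ratios of 0.470, 0.590, 0.572, 0.644 and 0.602 in NB, with the lowest value in NB A1. They were 0.558, 0.503 and 0.509 at 6h, within the NB range. The 1d libraries, at 0.808, 0.732, 0.754 and 0.873, were all above NB (exact permutation p = 0.0159, adjusted 0.0317). The 3d libraries, at 0.703, 0.566, 0.615 and 0.592, overlapped NB (exact permutation p = 0.381). The 6h difference did not pass (exact permutation p = 0.321), and against NB A1 alone its log2 value turned from -0.13 to 0.15. The RPE ratio at 1d was thus higher although neither gene passed on its own against NB.

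**Figure D4:**
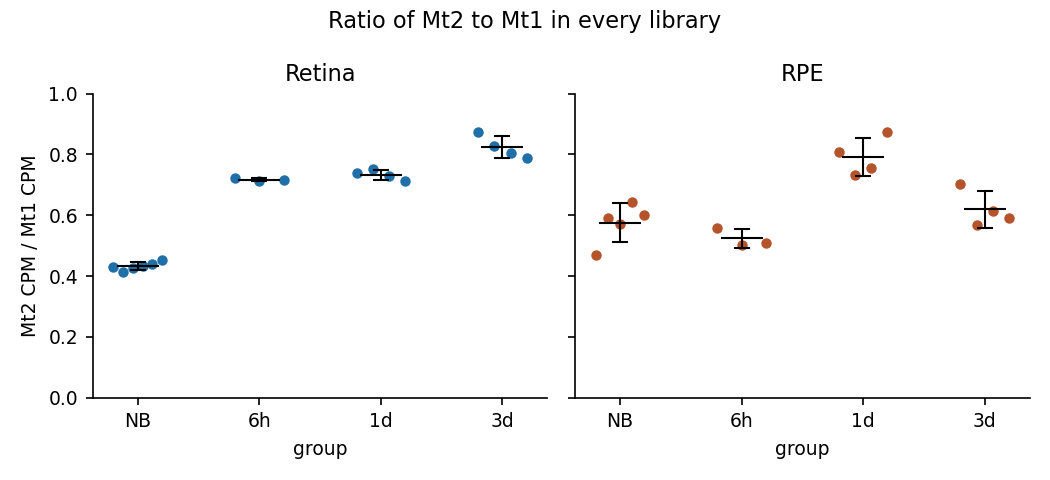
Ratio of Mt2 CPM to Mt1 CPM (vertical axis, from 0) in each library by group (horizontal axis), retina left and RPE right, with the mean as a long dash and bars of 1 SD. Retinal ratios step from 0.415 to 0.454 in NB to 0.788 to 0.872 at 3d, and in RPE only the 1d libraries lie above NB.

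The neighbouring genes on chromosome 8 were read in the same fit. Of the 3 nearest protein-coding genes on each side, 5 have rows in both tables, namely Nudt21, Ogfod1 and Bbs2 before the cluster and Nup93 and Herpud1 after it. In the retina Bbs2, a component of the ciliary BBSome, fell by 0.25, 0.74 and 0.55 on the log2 scale at 6h, 1d and 3d (limma adjusted p = 0.0108, 1.91e-08 and 2.44e-06). Herpud1, a gene of endoplasmic reticulum protein degradation, rose by 0.21 at 6h and 0.24 at 1d (adjusted p = 0.00867 and 0.000873). Nudt21, Ogfod1 and Nup93 did not pass in the retina, and none of the 5 passed in RPE libraries.

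Metal-handling genes changed unequally, from no call to a rise of the copper carrier Cp. Mtf1, the zinc-sensing activator of Mt1 and Mt2, stood at 43.6 ± 3.47 CPM in NB retina (SD, n = 6) and 45.5 ± 0.766 at 6h (n = 3). It did not pass at 6h or 1d and fell by 0.25 at 3d (limma adjusted p = 0.00442). On library totals its 3d difference was only -0.098. Slc30a1, a zinc exporter and classical Mtf1 target, was near the filter at 1.25 ± 0.182 CPM in NB retina and did not pass at any time (0.06, 0.10 and -0.21). Of 9 zinc exporters tested in retina, 0 were called higher and 3 lower at 6h, 0 and 1 at 1d, and 1 and 2 at 3d. Of all retina genes tested, 16.9% were called higher and 18.5% lower at 6h, 24% and 27.5% at 1d, and 19.3% and 23.9% at 3d. A count near these shares says little about a list. The small falls of Slc30a5 at 1d and 3d (-0.12 each) turned to 0.048 and 0.029 on library totals. Slc30a10, counted among the exporters by its Slc30 family name, was lower at 6h (-0.38) and higher at 3d (0.47). Zinc export was not measured.

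Zinc importers were called higher in 3 of 13 cases at 6h, 6 at 1d and 3 at 3d, with 1 lower each time. Over all genes tested in retina the shares called higher were 16.9%, 24% and 19.3%, and called lower 18.5%, 27.5% and 23.9%. Slc39a1, which brings zinc in across the plasma membrane, rose from 29.8 ± 3.39 CPM in NB to 46.4 ± 4.7 at 6h, 63.7 ± 9.69 at 1d and 55.5 ± 2.46 at 3d. Slc39a14, an importer of zinc, iron and manganese, rose by 0.37 at 6h and 0.42 at 1d (limma adjusted p = 0.000222 and 1.12e-05). The median log2 change of the importers was 0.12, 0.11 and 0.06 at 6h, 1d and 3d, against 0.000387, -0.01 and -0.02 over all genes tested. In the RPE libraries, 0 of 13 importers passed at 6h and 3d, where 1.46% and 0.18% of all genes were called. At 1d, with 5.61% of all genes called, the importer Slc39a12 fell by 1.33 (limma adjusted p = 0.00126). The exporter Slc30a2 rose by 1.198 at that time while Slc30a5 fell by 0.51.

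Copper-handling genes, 14 tested in the retina, had 3 higher and 3 lower at 6h, 1 and 6 at 1d, and 3 and 5 at 3d. The shares of all genes were 16.9% higher and 18.5% lower at 6h, 24% and 27.5% at 1d, and 19.3% and 23.9% at 3d. Cp, the copper-carrying ferroxidase ceruloplasmin, rose from 198 ± 13.5 CPM in NB to 486 ± 59.7 at 6h, 749 ± 120.2 at 1d and 439 ± 40.9 at 3d. Atp7b, a copper-exporting ATPase, fell by 1.21 at 1d (limma adjusted p = 4.6e-07) and by 0.70 at 3d. Among RPE libraries only Heph, another copper ferroxidase, passed. It fell by 0.75 at 1d (limma adjusted p = 0.0247), where 5.61% of all genes were called.

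Genes of the other inputs to Mt1 and Mt2 were read in the same fit. In the interleukin-6 family and STAT3 list, 10 of 11 tested genes were higher in retina at 6h, 8 at 1d and 8 at 3d, with 2 lower at 3d. Of all genes, 16.9%, 24% and 19.3% were called higher at these times, and 23.9% lower at 3d. The median log2 change of the list was 1.50, 2.48 and 1.12. Lif, a cytokine of this family, went from 0.718 ± 0.266 CPM in NB to 48.0 ± 5.86 at 6h. Osmr, the oncostatin M receptor, rose by 3.51 ± 0.12 at 6h and by 2.26 ± 0.11 at 3d (limma adjusted p = 7.16e-14 and 4.16e-11). Stat3 itself rose by 2.17, 2.48 and 1.12 at 6h, 1d and 3d. In the RPE libraries Osmr rose by 1.39 at 6h and 2.50 at 1d and Socs3, the feedback inhibitor of this pathway, by 1.32 and 2.26 at 6h and 1d. Of 11 tested there, 2 genes were higher at 6h, 3 at 1d and 0 at 3d, against 0.808%, 1.77% and 0.162% of all genes.

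The glucocorticoid response list had 5 of 10 genes higher and 0 lower in retina at 6h, and 0 higher and 4 lower at 1d and again at 3d. For this list and the next, the shares over all genes were 16.9% higher and 18.5% lower at 6h. They were 24% and 27.5% at 1d, and 19.3% and 23.9% at 3d. Sgk1, a kinase induced by glucocorticoids, was 0.54 above NB at 6h on the log2 scale (limma adjusted p = 0.000563). It was 0.76 below NB at 1d and 0.64 below NB at 3d. In the thiol and NRF2 list, 4 of 12 genes were higher and 1 lower at 6h, 8 and 2 at 1d, and 5 and 0 at 3d. Hmox1, the heme-degrading enzyme heme oxygenase, rose from 3.52 ± 0.589 CPM in NB to 32.6 ± 8.01 at 6h, 27.5 ± 7.37 at 1d and 9.70 ± 0.913 at 3d. Txnrd1, thioredoxin reductase, rose by 0.76, 0.57 and 0.21. RPE Hmox1 rose by 0.93 at 1d, and Nqo1, a quinone reductase, fell by 0.55 at 6h and fell by 1.07 at 1d. The part of any of these pathways in the metallothionein values was not tested.

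The genes most like each metallothionein were named by Pearson's r of log2(CPM + 0.5) over the 17 retina libraries. The libraries share groups and depth sets, so r describes likeness in these samples and carries no test. Mt2 was first for Mt1 (r = 0.988), followed by Gbp2 (0.986), Tgm2 (0.985), Gbp2b (0.983) and Osmr (0.982). For Mt2 the order was Tgm2 (0.991), Tnfrsf1a (0.989), Mt1, Osmr (0.988) and Gbp2b (0.978). Gbp2 and Gbp2b encode interferon-inducible guanylate-binding proteins, Tgm2 a transglutaminase and Tnfrsf1a a receptor for tumour necrosis factor. Tgm2 went from 9.81 ± 1.43 CPM in NB to 41.4 ± 4.95 at 6h, 40.0 ± 5.45 at 1d and 26.0 ± 1.98 at 3d. Mt3 stood away from both, with r = 0.639 to Mt1 and 0.675 to Mt2. Its nearest genes were Maged1 (0.89), Cotl1 (0.851), Oplah (0.846), Th (0.846) and Lrp5 (0.844).

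Over the 16 RPE libraries the likeness of Mt1 and Mt2 was looser, at r = 0.782. The nearest genes to Mt1 were Cspg5 (0.912), Slc12a4, Rsph10b, Metrn and Nomo1 (0.902). Those to Mt2 were Ctsd (0.942), Vapb, Pebp1, Plod3 and Dnlz (0.905). Ctsd, the lysosomal protease cathepsin D, had means of 1180 ± 149.8 CPM in NB, 763 ± 62.9 at 6h, 1892 ± 460.03 at 1d and 1542 ± 329.9 at 3d, the same low 6h and high 1d as Mt2. Those to Mt3 were Mrpl58 (0.959), Col8a2 (0.952), Pltp (0.933), Nat8f1 (0.928) and Sfrp5 (0.922). Col8a2, a collagen of basement membranes, went from 743 ± 113 CPM in NB to 355 ± 28.2 at 6h, low where Mt3 was low.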

How the data were processed

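Retina and RPE RNA was read from stranded mRNA libraries, per the labels' protocols. Trimmomatic, STAR and edgeR were used with GRCm38, per the submitters' processing notes; their versions and the read counter are not given in the sources used here. The authors' deposited signal values are CPM on an effective library size, per the file headers and the values, and each is a whole multiple of 1 read within 0.01 of a read. The deposited log2 fold changes and unadjusted p-values are the authors' own comparisons with NB. The authors' filter on low genes is not stated.

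The test was limma 3.58.1 in R 4.3.3 on log2 of CPM plus 0.5, all groups of a tissue in 1 fit with a variance trend, for genes with at least 1 CPM in at least 3 libraries, Benjamini-Hochberg threshold 0.05, two-sided. Ratios were tested by exact permutation in SciPy 1.17.1. Identifiers were matched to symbols, leaving 6 retina and 7 RPE identifiers without one. Other settings tried were TMM rescaling, library totals, added constants of 0.1 and 2, no filter on low genes, edgeR 4.0.16 and DESeq2 1.42.0 on recovered reads, 2 groups alone, NB of the same depth set, a replicate block, and each library left out. NB columns name the group but no single sample. The scripts were checked on simulated data. A simulated 1.5-fold change was recovered for 74.6% of changed genes in retina at 6h, 22.4% in RPE at 6h and 34.3% in RPE at 1d.

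Genes named were the members, Mtf1 and Slc30a1, up to 3 called genes with the smallest adjusted p per list, time and tissue (of which some are described), the 3 nearest coding genes on each side of the cluster, and the 5 most alike by r. Members and lists were chosen with earlier results of these data known. No protein sequences were used here.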

Additional observations from a re-analysis of the deposited data

Results flagged for a closer look

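The change differed between the tissues by the interaction test in 10 of 12 tests over the 3 genes. These tests cover each time against NB and the step from 1d to 3d. All 10 are listed here, and the others, Mt2 and Mt3 from 1d to 3d, did not pass. The RPE change minus the retina change, on the log2 scale, was -2.89 for Mt1, -3.71 for Mt2 and -1.28 for Mt3 at 6h. At 1d it was -2.28, -2.54 and -0.70, and at 3d -1.31, -2.09 and -0.80. From 1d to 3d it was 0.97 for Mt1. In the RPE libraries the levels before and after stayed between 297 and 631 CPM for Mt1 and between 183 and 453 CPM for Mt2, while the retina rose from a much lower NB level. Dixon's test on the 18 groups of 4 or more libraries picked out no library of Mt1, Mt2 or Mt3; chance gives about 1 in 20 groups.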

How the results depend on the processing

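The retinal rises of Mt1 and Mt2 against NB at 6h, 1d and 3d, and all differences between the tissues against NB apart from that of Mt3 at 1d, kept their direction and passed under every alternative run. Among these, TMM rescaling returned the main counts of calls in every comparison and so adds no separate check. The run with no filter tested 16930 retina genes against 16926, and 16714 RPE genes against 16712, so it too adds little. With a single library left out, the log2 values that changed a call or a sign ranged as follows. For retina 1d against 6h the ranges were -0.45 to -0.22 (Mt1), -0.42 to -0.19 (Mt2) and -0.36 to -0.19 (Mt3). For Mt3 they were -0.046 to 0.042 (retina 3d against 6h), 0.18 to 0.35 (retina 3d against 1d), -0.97 to -0.72 (RPE 6h against NB), -0.081 to 0.28 (RPE 3d against 1d), -0.81 to -0.45 (tissue difference at 1d) and -0.35 to 0.0069 (tissue difference, 3d against 1d). For Mt1 in RPE they were -0.14 to 0.13 (1d against NB), -0.0087 to 0.20 (3d against NB) and -0.010 to 0.26 (3d against 1d). For Mt2 in RPE they were 0.28 to 0.62 (1d against NB) and 0.72 to 1.05 (1d against 6h). The log2 ratio of Mt2 to Mt1 in retina at 6h ranged from 0.71 to 0.74, and with 2 libraries of 6h the test could not pass.

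Of single settings, library totals gave 0.29 for Mt3 in retina at 1d against NB (now past), 0.11 for Mt3 in retina at 3d against 6h (sign turned) and 0.76 for Mt2 in RPE at 1d against 6h (no longer past). DESeq2 called Mt1 (-0.33) and Mt3 (-0.28) in retina at 1d against 6h, Mt3 in RPE at 6h (-0.89) and Mt2 in RPE at 3d against 6h (0.69). The 2 groups alone gave -0.88 for Mt3 in RPE at 6h (now past) and 0.86 for Mt2 in RPE at 1d against 6h (no longer past). NB of the same depth set gave -0.68 for the Mt3 tissue difference at 1d (no longer past), a log2 ratio of 0.76 in retina at 6h (exact permutation p = 0.2) and 0.15 in RPE at 6h, where the sign turned. The cause of these shifts was not tested.

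Counts of called genes moved by over 1.5 times as follows, with the range when a library was left out. RPE 6h against NB (244 genes) gave 147 on library totals, 383 with edgeR, 1250 with DESeq2, 436 in 2 groups alone and 32 with NB of the same depth set, and ranged from 9 to 1012. RPE 1d against NB (937) gave 1668 with DESeq2 and 539 in 2 groups alone, ranging from 617 to 1429. RPE 3d against NB (30) gave 139 and 19, ranging from 15 to 35. RPE 1d against 6h (567) gave 299 on library totals and 1652 with DESeq2, ranging from 46 to 724. RPE 3d against 6h (146) gave 63 on library totals, 1121 with DESeq2 and 30 in 2 groups alone, ranging from 11 to 346. RPE 3d against 1d (1100) gave 1977 with DESeq2 and 526 in 2 groups alone, ranging from 363 to 1196. The tissue difference at 6h (2653) gave 887 with NB of the same depth set and ranged from 1533 to 3755. The ranges were 1321 to 3271 at 3d (1842) and 491 to 1360 for 3d against 1d (873).

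On library totals the calls, higher and lower, were 5605 and 1836 for retina 1d against 6h (2963 and 2969 by the main scaling), 119 and 28 for RPE 6h against NB (135 and 109) and 37 and 26 for RPE 3d against 6h (107 and 39).

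Correlations of same-numbered deviations ran from -0.54 to 0.35 in retina, from -0.29 to 0.30 in RPE and from -0.13 to 0.27 between the tissues. Differently numbered libraries were not compared and NB was not covered, so whether the numbers pair the samples is not settled. The main interaction fit modelled no pairing between the tissues. The replicate number was used as a block only between 6h, 1d and 3d, and for the tissue difference of 3d against 1d. No comparison with NB was fitted with it. Under the block Mt2 in RPE at 1d against 6h was 0.81 and no longer passed. No other call on the 3 genes changed among the comparisons fitted this way. The block moved the counts of called genes to 229 for RPE 1d against 6h, 40 for RPE 3d against 6h and 288 for the tissue difference of 3d against 1d. Depth limits Mt3 in retina most, at 107 to 442 reads a library.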
